A study of Homo sapiens with 4 samples.

Results

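SOX transcription factors were examined in HEK293 cells, a human embryonic kidney line transformed with adenovirus DNA and much used to express cloned receptors. The genes were SOX2, SOX3, SOX4, SOX5, SOX6, SOX8, SOX9, SOX10, SOX11 and SOX12, chosen by name, and their probes were found through the RefSeq accession that each probe name carries. All 10 genes were found, each with 1 target of 3 probes, among 17217 named genes on the array. The 4 samples were untreated biological replicates of 1 group, grown in the same medium with serum. Per the methods, plates and extractions were separate. Each was hybridised in a single colour to an array of long oligonucleotide probes. There was no second condition, so each value below is a level in this 1 line. The genes were picked with results of these arrays already known, and their levels are therefore described and not tested.

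SOX proteins are transcription factors that bind DNA through an HMG box related to that of the sex-determining factor SRY. They are sorted into groups by the sequence of the box, and members of a group often stand in for each other. SoxB1 factors hold neural and pluripotent progenitors in their undifferentiated state. SoxC factors act in progenitors and young neurons, SoxD factors in cartilage and glia, and SoxE factors in cartilage, gonad, neural crest and glia.

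Detection was judged with the rule that the study used. A baseline was set for each array at 2 SD over the mean of 10 seminal control genes, and the distance of a gene is its log2 level minus that baseline. A gene with a mean distance above 0 over the 4 arrays was detected. The baseline was 9.47, 9.94, 10.69 and 10.32 log2 units on replicates 1 to 4. A distance is a signal, since every probe has its own affinity, and it does not count transcripts.

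SOX4, SOX3, SOX11 and SOX2 were detected, which made 4 of 10 genes. Among all named genes the rule called 9074, or 52.7%. SOX4 was the only member of the 10 above the baseline on all 4 arrays, a state that 45.0% of all named genes reached. SOX5, SOX6, SOX8 and SOX10 were below the baseline on each of the 4 arrays, as were 6855 of all 17217 named genes. The other 5 SOX genes lay above it on 1 to 3 arrays. The count depended on the baseline. With 1 SD in place of 2 it was 9 of 10, beside 64.3% of all named genes, and with 3 SD it was 1 of 10, beside 39.1%. Without SPATA5 and SPATA13, the controls with the strongest signal, all 10 passed, beside 74.0%. SOX4 alone was detected under every setting run. The median distance of the 10 genes was -0.42 log2 units, against 0.26 over all named genes. The 6 genes of the SoxB1 and SoxC groups with SOX9 stood at the head of the order by mean distance, and the SoxD genes with SOX8 and SOX10 at its foot.

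**Figure D1:**
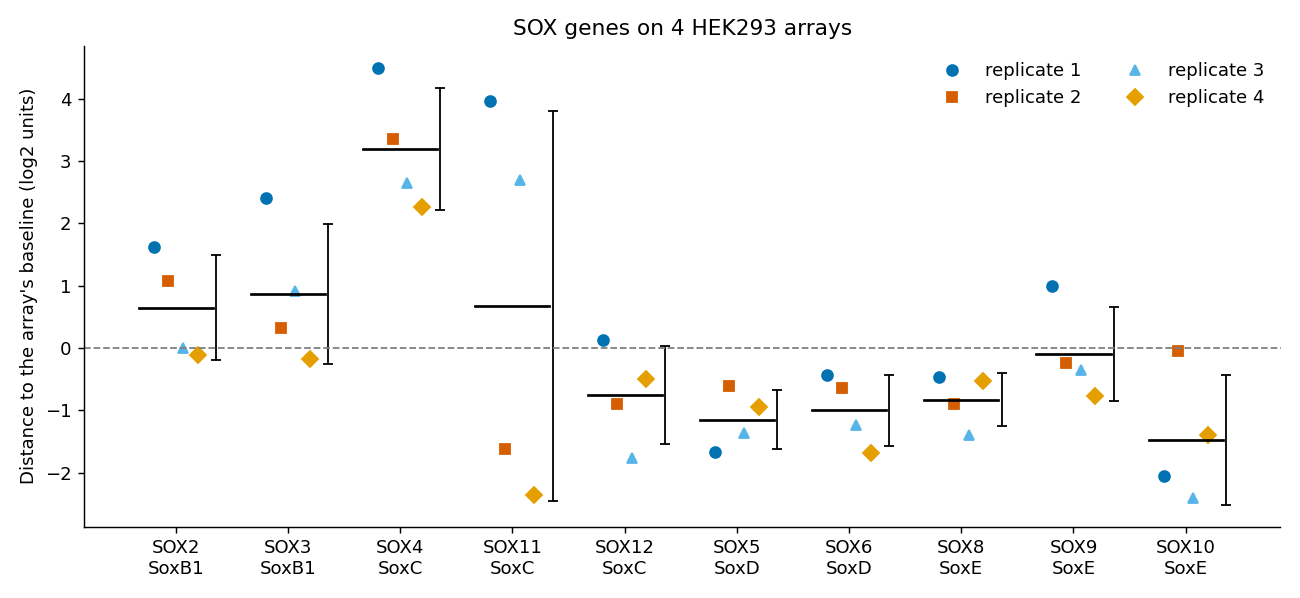
Distance of each SOX gene to the baseline of its array (vertical axis, log2 units), with 1 symbol per replicate, the mean as a horizontal line and the SD over 4 arrays as a vertical bar. SOX4 is above 0 on every array, and SOX11 has replicates 1 and 3 at 3.96 and 2.70 and replicates 2 and 4 at -1.62 and -2.36.

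The widest difference among the replicates was that of SOX11, a SoxC factor of embryonic neurons and progenitors. Its level was 13.43, 8.32, 13.39 and 7.97 log2 units on replicates 1 to 4. Replicates 1 and 3 were high and nearly equal, and replicates 2 and 4 were low, with no overlap. Both low arrays were below the baseline, so their values are signals that the rule does not call expression. In rank among all named genes SOX11 stood at percentiles 84.9 and 86.3 on replicates 1 and 3, and at 31.6 and 25.7 on replicates 2 and 4. Its mean distance of 0.67 ± 3.13 log2 units (SD, n = 4) was not near the distance on any of the 4 arrays. The detected call was lost without replicate 1, at -0.42, and without replicate 3, at -0.0026.

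All 3 probes of SOX11 took part. On replicates 1 and 3 they read from 12.61 to 13.85 log2 units, and on replicates 2 and 4 from 6.74 to 8.98. The probe values of the high and the low arrays did not overlap. Replicates 1 and 2 share nearly the same distribution of deposited values, as do replicates 3 and 4, so the difference could be read within each of these pairs. The measured signals differed by 5.11 log2 units between replicates 1 and 2 and by 5.42 between replicates 3 and 4. With the low array set at its baseline, SOX11 was at least 11.3-fold higher on replicate 1 than on replicate 2, and at least 8.37-fold higher on replicate 3 than on replicate 4. In measured signal, counting SOX11 itself, 7 of 17217 genes were as far apart between replicates 1 and 2, and 2 between replicates 3 and 4. A range over the 4 arrays as wide as that of SOX11, 5.47 log2 units, was reached by 6 genes in all, with SOX11 the sixth. The median range over all named genes was 0.94 log2 units. Fewer cells with SOX11 message and less message per cell cannot be told apart in bulk RNA.

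**Figure D2:**
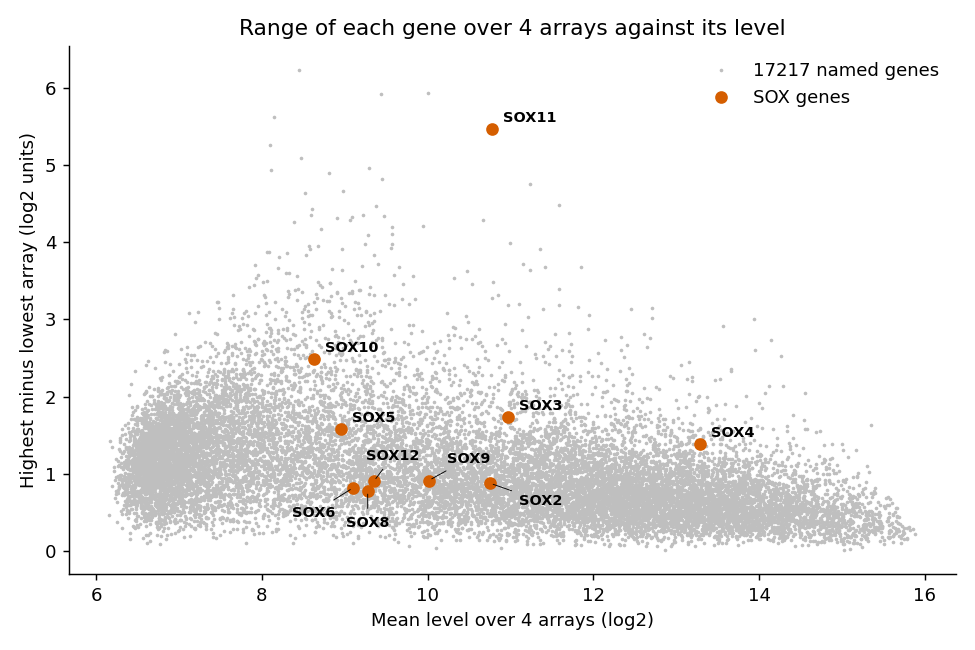
Highest minus lowest array (vertical axis, log2 units) against the mean level over 4 arrays (horizontal axis, log2) for 17217 named genes in grey and the 10 SOX genes in orange. SOX11 lies at 5.47 log2 units, and the other SOX genes lie between 0.78 and 2.48.

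The labels name no difference between the replicates, and no test was made of a split that the values themselves gave. Across genes, which are not independent, Pearson's r was 0.971 between replicates 1 and 3 and 0.977 between replicates 2 and 4, and from 0.949 to 0.959 for the other pairs. Levels on replicates 1 and 3 were both above those on replicates 2 and 4 for 22.2% of all named genes and for 4 of the 10 SOX genes, SOX3, SOX4, SOX9 and SOX11. The opposite order held for 18.5% of all named genes and for SOX5 and SOX10. For SOX4 and SOX5 the order was narrow. Replicate 3 minus replicate 2 was 0.06 log2 units for SOX4 and -0.01 for SOX5, against 5.07 for SOX11. Gaps of 3 log2 units or more between arrays next to each other in order of level were rare, in 30 genes. Of these 15 were high on replicates 1 and 3, SOX11 among them, and 6 on replicates 2 and 4. The rest were split in other ways. What set the replicates apart was not tested.

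SOX3, the X-linked SoxB1 factor of neural progenitors and pituitary, had a level of 11.87, 10.26, 11.61 and 10.14 log2 units on replicates 1 to 4. In the level of the gene the same arrays were high as for SOX11, but the difference was smaller. It was 1.61 log2 units between replicates 1 and 2 and 1.47 between replicates 3 and 4, or 3.06-fold for the first pair and at least 2.44-fold for the second, where replicate 4 was below its baseline. The range of SOX3 was matched or passed by 11.7% of all named genes. Its probes did not all share the order of arrays. Probe 3 read 11.62, 10.64, 9.91 and 9.84 log2 units on replicates 1 to 4, with replicate 3 below replicate 2. Its mean distance was 0.87 ± 1.12 log2 units (SD, n = 4), with replicate 4 below the baseline. The distance was within the spread between arrays, and stood between 0.35, without replicate 1, and 1.21 when single replicates were left out.

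SOX1, the third SoxB1 gene, which marks early neural plate, had a level between 6.64 and 6.99 log2 units on the 4 arrays, and its distance was -3.32 ± 0.45 (SD, n = 4).

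SOX2, the SoxB1 factor best known for pluripotency and neural stem cells, had a level of 11.09, 11.00, 10.69 and 10.22 log2 units on replicates 1 to 4. The arrays differed by 0.88 log2 units at most, a range that 54.9% of all named genes matched or passed. Its mean distance was 0.65 ± 0.84 log2 units (SD, n = 4), and it fell just below the baseline on replicate 3, at -0.00385, and on replicate 4, at -0.11. Without replicate 1 the distance was 0.32, and with other single replicates left out it was at most 0.90. The call rested on 1 probe. That probe averaged 12.03 log2 units over the arrays, while the others averaged 7.83 and 9.34. The probes of SOX2 spanned 4.20 log2 units, a spread matched or passed by 7.15% of targets with 3 probes. With the median of the probes in place of their linear mean, the distance was -0.63, and SOX2 was not detected.

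SOX4, the SoxC factor found in many progenitors and tumours, had the highest signal of the 10 genes. Its level was 13.97, 13.28, 13.34 and 12.58 log2 units on replicates 1 to 4. Every array was above its baseline, by 2.26 to 4.50 log2 units, and the rank lay between percentiles 76.6 and 90.6. The mean distance of 3.19 ± 0.98 log2 units (SD, n = 4) was larger than the spread between arrays. All 3 probes averaged above the mean baseline, between 11.92 and 13.80 log2 units.

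**Figure D3:**
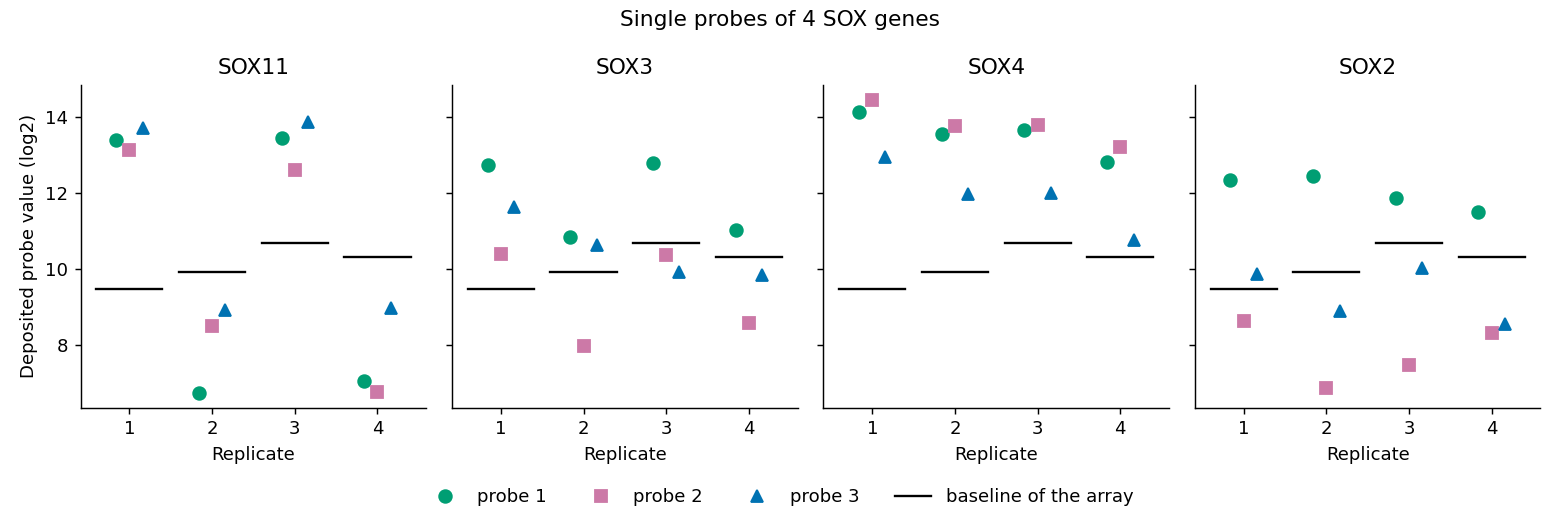
Deposited log2 value (vertical axis) of each of the 3 probes of SOX11, SOX3, SOX4 and SOX2 on replicates 1 to 4 (horizontal axis), with the baseline of each array as a black line. The 3 probes of SOX11 switch sides of the baseline together, those of SOX4 stay above it, and a single probe carries SOX2.

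SOX12, the remaining SoxC gene, was not detected. Its level was 9.60, 9.04, 8.93 and 9.83 log2 units on replicates 1 to 4, and its distance was -0.76 ± 0.79 (SD, n = 4). It was above the baseline on replicate 1 alone, by 0.13 log2 units. The SoxC group thus held a gene high on all arrays, a gene high on some arrays and a gene near or below the baseline.

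The promoters of SOX4 and SOX12 are shown because these genes of 1 group stood on opposite sides of the baseline. RefSeq promoter windows on GRCh38.p14 were held for 6 of the 10 genes, and here the 250 bases before the start of transcription were read. Capitals mark CpG dinucleotides. The SOX4 window is chr6:21593501-21593750 on the plus strand, and the SOX12 window is chr20:325302-325551 on the plus strand.
SOX4: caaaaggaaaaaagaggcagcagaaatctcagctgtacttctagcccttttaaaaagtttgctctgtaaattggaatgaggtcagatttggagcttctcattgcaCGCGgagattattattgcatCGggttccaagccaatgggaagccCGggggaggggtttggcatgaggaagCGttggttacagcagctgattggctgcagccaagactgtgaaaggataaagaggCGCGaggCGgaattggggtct
SOX12: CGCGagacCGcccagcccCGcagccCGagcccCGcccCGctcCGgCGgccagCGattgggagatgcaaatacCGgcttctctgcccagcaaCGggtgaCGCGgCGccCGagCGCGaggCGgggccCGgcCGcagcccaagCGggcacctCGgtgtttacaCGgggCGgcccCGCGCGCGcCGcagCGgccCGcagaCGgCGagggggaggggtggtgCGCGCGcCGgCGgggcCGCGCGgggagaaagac
The SOX4 window held 8 CpG and the SOX12 window 42, against a median of 11 over 35116 windows. A count as high as that of SOX12 was found in 1.38% of windows, and one as high as that of SOX4 in 56.3%. GC content was 48.8% for SOX4 and 79.2% for SOX12. The detected SoxB1 genes SOX2 and SOX3 held 20 and 17 CpG. SOX5, which was not detected, held 27, and the windows of SOX6, also not detected, held from 0 to 17. The core motif ACAAAG or the related ACAATG, searched on both strands, occurred in neither the SOX4 nor the SOX12 window, and 13.7% and 9.29% of all windows held them. Of the 10 windows held for the 6 genes, 2 had ACAAAG and 3 had ACAATG. These counts describe sequence only, and no methylation or binding was measured.

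The SoxE group had SOX9 next to the baseline and its other members below. SOX9, the factor of cartilage, testis and many epithelial progenitors, had a level of 10.46, 9.70, 10.34 and 9.55 log2 units on replicates 1 to 4. Its distance was -0.09 ± 0.76 log2 units (SD, n = 4), with replicate 1 alone above the baseline, by 0.99. Left without replicate 4 the distance was 0.13, which made SOX9 detected. Its highest probe averaged 10.76 log2 units and its lowest 8.60.

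SOX10, the SoxE factor of neural crest, melanocytes and glia, had the lowest mean distance of the 10 genes, at -1.47 ± 1.04 log2 units (SD, n = 4). Its level was 7.41, 9.89, 8.29 and 8.93 on replicates 1 to 4. Replicates 2 and 4 were higher than replicates 1 and 3, the opposite of SOX11, and replicate 2 came within 0.04 log2 units of the baseline. The range of 2.48 log2 units was matched or passed by 2.62% of named genes. A large part lay in 1 probe, which ran from 6.77 to 10.79 log2 units over the arrays. SOX8, a SoxE factor that overlaps with SOX9 and SOX10 in function, had levels from 9.00 to 9.79 log2 units and a distance of -0.83 ± 0.43 (SD, n = 4).

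The SoxD genes have no transactivation domain of their own and act with other factors, SOX9 in cartilage among them. SOX5 had a level of 7.79, 9.33, 9.32 and 9.37 log2 units on replicates 1 to 4. Replicate 1 was low, and the other arrays lay close together. The distance was -1.15 ± 0.47 log2 units (SD, n = 4). SOX6 had levels from 8.64 to 9.46 log2 units and a distance of -1.0 ± 0.57 (SD, n = 4). In contrast SOX13, the third SoxD gene, was detected, with a level from 11.58 to 12.09 log2 units and a distance of 1.76 ± 0.31 (SD, n = 4), above the baseline on all 4 arrays.

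The order of the 10 genes by mean distance was SOX4, SOX3, SOX11, SOX2, SOX9, SOX12, SOX8, SOX6, SOX5 and SOX10. This is an order of probe signals, and the SD over arrays does not cover the affinity of the probes. Of the 9 pairs of neighbours 7 differed by less than the SD of their difference over the arrays. The others, SOX4 with SOX3 at 2.32 log2 units and SOX2 with SOX9 at 0.74, differed by less than the median spread between the probes of a SOX target, 2.45 log2 units. With the median of the probes SOX9, at a distance of -0.18, stood before SOX2, at -0.63. SOX11 was above both SOX3 and SOX2 on replicates 1 and 3 and below both on replicates 2 and 4. Over all targets with 3 probes the median spread was 1.67 log2 units, and 8 of the 10 SOX genes were above it, with SOX10 at 1.62 and SOX11 at 1.56 below.

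Outside these 10 genes, 9 other SOX genes were on the array and 2 were detected, SOX13 and SOX15, beside 52.7% of all named genes. SOX15, the single SoxG gene, had a distance of 0.08 ± 0.59 log2 units (SD, n = 4), within the spread between arrays, and fell to -0.20 without replicate 4. By limma's one-sided test, adjusted by the Benjamini-Hochberg method over all named genes, 1 of the 9 was called, against 45.9% of all named genes. SOX30, a germ cell gene, stood at -0.46 ± 0.52 and SOX7 at -1.31 ± 0.53 log2 units (SD, n = 4 for each). The 2 targets of SOX30 disagreed, with probes that averaged 9.60 to 10.80 log2 units for one and 7.38 to 9.53 for the other. With the higher target alone SOX30 was detected, at 0.30, which made 3 of 9, beside 53.1% of all named genes. SOX1, SOX14, SOX17, SOX18 and SOX21 lay between -3.51 and -2.48 log2 units. As background, the median distance of 364 olfactory receptor genes, which a kidney line is not thought to use, was -3.42. All of the 10 SOX genes lay above that median, the lowest at -1.47. So did most named genes, whose median distance was 0.26, and this does not set the SOX genes apart.

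Relatives, partners and known targets of SOX factors were then set against the same baseline. Of 73 such genes 25 (34.2%) passed, 24 with every array above the baseline, beside 52.7% of all named genes. The TCF/LEF factors, which carry a related HMG box and serve Wnt signalling, gave 4 of 4 detected. TCF7L2 stood at 3.77 ± 0.19 and TCF7L1 at 3.36 ± 0.60 log2 units (SD, n = 4 for each). The HMGB chromatin proteins gave 3 of 3, led by HMGB3 at 4.31 ± 0.54 (SD, n = 4).

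Of 11 pluripotency genes 2 were detected. This and the next counts stand beside 52.7% of all named genes. LIN28B, which blocks let-7 maturation, stood at 3.87 ± 0.56 and the factor KLF4 at 2.91 ± 0.90 log2 units (SD, n = 4 for each). POU5F1, the partner of SOX2 in stem cells, stood at -0.06 ± 0.27 and NANOG at -2.86 ± 0.35 (SD, n = 4 for each). Neural progenitor genes gave 3 of 10, and these were the RNA-binding protein MSI1 at 2.49 ± 0.88, NOTCH1 at 1.09 ± 0.44 and the intermediate filament NES at 0.89 ± 0.80 log2 units (SD, n = 4 for each). FABP7 stood at -3.20 ± 0.57 (SD, n = 4). Genes of young neurons, the setting in which SOX4 and SOX11 are best known, gave 4 of 9. STMN1 stood at 3.25 ± 0.88, NCAM1 at 2.79 ± 0.53, TEAD2 at 1.97 ± 0.82 and TUBB3 at 1.59 ± 0.97 log2 units (SD, n = 4 for each), while DCX stood at -3.06 ± 0.93. STMN2, ELAVL3 and ELAVL4 of the same list were not detected, at -3.12, -3.16 and -2.91 log2 units. TUBB3 and TEAD2 have been described as SoxC targets. The level of TUBB3 was 12.40, 11.62, 11.58 and 11.20 on replicates 1 to 4, a range of 1.20 log2 units beside 5.47 for SOX11. MAP2, a microtubule protein of neurons in the same list, was not detected, at -0.34 log2 units. Its level was 10.82, 8.24, 10.91 and 9.07 on replicates 1 to 4, with replicates 1 and 3 high as for SOX11. Its range of 2.68 was matched or passed by 1.83% of named genes, and 22.2% of all named genes had this order. MATN1, of the cartilage list below, had the opposite order and a wider range of 3.21. Its level was 7.16, 10.37, 8.21 and 10.15 log2 units on replicates 1 to 4.

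**Figure D4:**
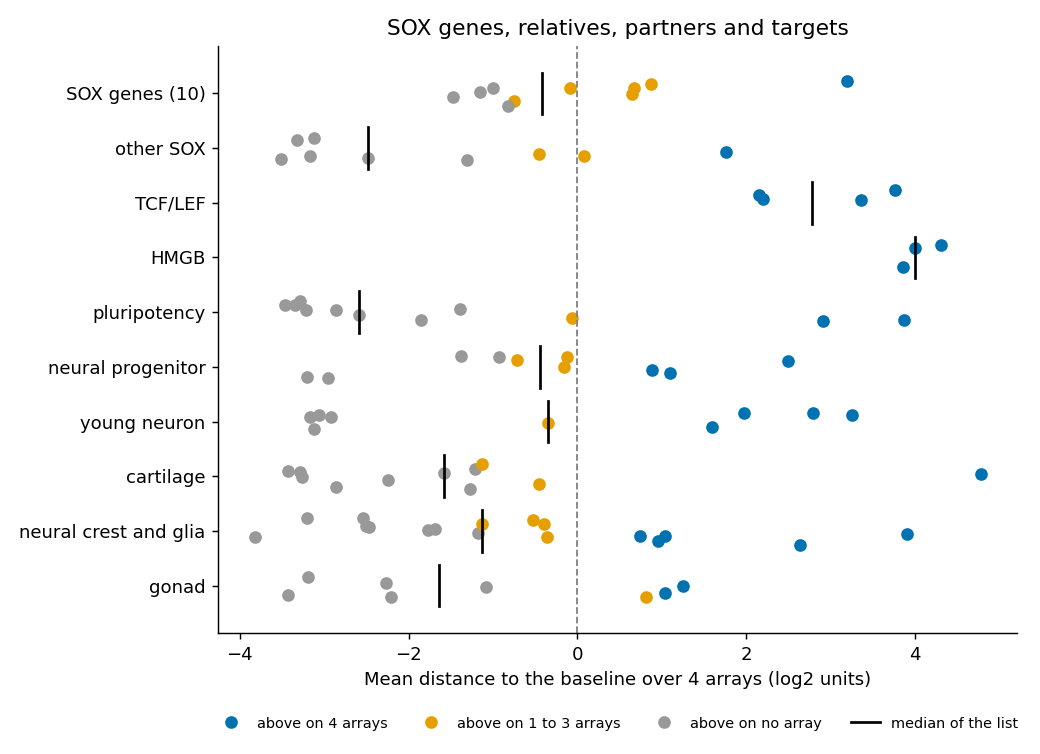
Mean distance to the baseline over 4 arrays (horizontal axis, log2 units) for every gene of each list, coloured by the number of arrays above the baseline, with the median of the list as a black line. All genes of the TCF/LEF and HMGB lists lie above 0, and of the cartilage list COL2A1 alone does, at 4.78.

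Cartilage genes, classical targets of SOX9 with SOX5 and SOX6, gave 1 detected of 11, where the rule called 52.7% of all named genes. This was COL2A1, the collagen chain of cartilage, with a level of 14.91, 14.70, 15.11 and 14.81 log2 units on replicates 1 to 4. Its distance was 4.78 ± 0.47 (SD, n = 4), and its rank lay between percentiles 96.1 and 98.9. The other cartilage genes lay between -3.43 and -0.46 log2 units, ACAN at -2.86 ± 0.14 (SD, n = 4) among them. Genes of neural crest and glia gave 5 of 17, with TFAP2A at 3.90 ± 0.57, PMP22 at 2.63 ± 0.70, NGFR at 1.04 ± 0.67 and PAX3 at 0.95 ± 0.57 log2 units (SD, n = 4 for each). MITF, a SOX10 target in melanocytes, stood at -0.40 ± 0.84 (SD, n = 4). Gonad genes gave 3 of 8, GATA4 at 1.25 ± 0.52, FGF9 at 1.03 ± 0.86 and WT1 at 0.81 ± 1.03 log2 units (SD, n = 4 for each). AMH, a SOX9 target in the testis, stood at -2.20 ± 0.97 (SD, n = 4).

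Most of these counts moved with the baseline. The 4 settings that lowered it called 64.3% to 74.0% of all named genes. Under them 5 to 7 of 11 cartilage genes and 7 to 8 of 10 neural progenitor genes were detected. Genes of neural crest and glia gave 10 to 12 of 17. The rise was thus shared by genes at large. Pluripotency genes rose to between 3 and 5 and gonad genes to between 4 and 6. With 3 SD, 1 neural progenitor gene, 2 crest and glia genes and no gonad gene were left, and COL2A1 was still the 1 cartilage gene. The share of all named genes was then 39.1%. All TCF/LEF and HMGB genes were detected under every setting, and young neuron genes stayed at 4 or 5.

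The label of the line was set against marker genes. Epithelial markers gave 3 of 4 detected, kidney tubule and podocyte markers 0 of 6, kidney progenitor markers 3 of 5 and neurofilament genes 4 of 4, beside 52.7% of all named genes. Above the baseline on all 4 arrays were 3 epithelial markers, 1 kidney progenitor marker and 3 neurofilament genes, beside 45.0% of all named genes. The 6 tubule and podocyte markers were below the baseline on each of the 4 arrays, as were 6855 of all 17217 named genes. Up to 3 of these markers passed under the lower baselines. Epithelial markers stayed at 3 or 4 under every setting and neurofilament genes too, while kidney progenitor markers ran from 1 to 5.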

How the data were processed

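The deposited table holds log2 values of 71998 probes on each array, made by the authors from single-colour Cy3 scans of 60-mer arrays designed on HG18. RMA is named in the submitters' processing notes, and no normalization is described in the methods. After sorting, replicates 1 and 2 matched to within 0.01 at 99.97% of ranks, replicates 3 and 4 at 99.99% and replicates 1 and 3 at 1.23%, so the pairs appear to have been normalized apart. Labelling by random nonamers on double-stranded cDNA does not keep strand, so overlapping antisense messages cannot be told apart. Depth does not apply, and 4 arrays limit the precision. Background and saturation of spots, and the probe sequences, were not analysed here, so signal shared between close SOX paralogs cannot be told apart.

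Accessions were matched without versions to RefSeq genes of GRCh38.p14, which named 19125 of 24000 targets and 17217 genes. A target is log2 of the mean linear value of its probes, and a gene is the mean of its targets. Of 11 control genes that the study lists, 10 were matched. Means and SDs run over 4 arrays. The rule for calls was the study's, and limma 3.58 in R 4.3 served as an alternative for genes other than the 10 SOX genes, with a prior that gave all genes the same variance. Its steps were tested on simulated data. The SOX genes and all lists were chosen with earlier results of these data known. Named were all SOX genes, up to 4 genes of each list with the highest mean distance, and, where undetected, POU5F1, NANOG, FABP7, DCX, MITF and AMH. Some genes that this rule names are not reported here. ACAN, STMN2, ELAVL3 and ELAVL4 were named after their values were seen, and so were NEFM, MAP2 and MATN1 for their range. Alternatives changed the height or genes of the baseline, the probe or target summary, the arrays used and the call. A planned comparison of protein sequences was not made.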

Additional observations from a re-analysis of the deposited data

Results flagged for a closer look

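Levels, distances and percentile ranks of 19 SOX genes gave 57 sets of 4 arrays. In 4 of these, 1 array was so far from the rest that its ratio of gap to range passed the critical value of Dixon, and about 1 in 20 sets does so by chance. Replicate 1 had SOX5 at a level of 7.79 log2 units where the other arrays had 9.32 to 9.37 (ratio 0.967). The percentile rank of SOX5 on replicate 1 was 29.2 where the other arrays had 38.9 to 40.4 (ratio 0.864). SOX8 had a percentile rank of 44.2 on replicate 4, against 37.7 to 38.6 elsewhere (ratio 0.852). SOX14 had a percentile rank of 13.9 on replicate 2, against 4.21 to 4.78 elsewhere (ratio 0.941). No distance to the baseline was marked. The causes were not tested.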

How the results depend on the processing

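Counts moved most with the baseline. The 4 SOX genes detected became 9 with 1 SD and 1 with 3 SD, and 10 without SPATA5 and SPATA13, with olfactory receptor genes as controls, and with the median and scaled MAD. Of all named genes 52.7% passed as reported, 64.3% with 1 SD, 39.1% with 3 SD, and 74.0%, 71.4% and 67.7% under the last 3, so the SOX genes went from below the share of all genes to above it. Over the same settings the 2 other SOX genes became 4 with 1 SD, 1 with 3 SD and 4 under each of the others. The 25 partner and target genes became 41 with 1 SD, 17 with 3 SD, 50 without SPATA5 and SPATA13, 47 with olfactory receptors and 45 with the MAD. Above the baseline on all 4 arrays were 1 of the 10 SOX genes and 1 of the other SOX genes, beside 45.0% of all named genes. By limma 1 of the other SOX genes was called, beside 45.9%. The other SOX genes also fell to 1 on replicates 1 and 2 alone, beside 55.9%. Leaving out single replicates gave 3 to 5 SOX genes, 1 to 2 other SOX genes and 25 to 27 partner and target genes. The share of all named genes was then 50.6% to 54.3%. With 3 SD the distances fell to -0.67 for SOX2, -0.45 for SOX3, -0.65 for SOX11 and -1.24 for SOX15, and SOX4 stayed above 0 under every setting run. SOX2 fell to -0.033 with the mean of log2 probe values, -0.63 with their median and -0.055 on replicates 3 and 4 alone. With single replicates left out, SOX11 ranged from -0.42 (without replicate 1) to 1.68 (without replicate 4) and was -0.0026 without replicate 3, and SOX15 ranged from -0.20 (without replicate 4) to 0.21 (without replicate 2). SOX15 fell to -0.16 on replicates 1 and 2 alone. The cause was not tested beyond the higher or lower baseline. Of the percentile ranks, which use no control genes, 92 alternative values stayed within 1 SD over the 4 arrays and 8 moved further. Means over part of the arrays could not pass that limit, so they do not test stability. The 8 moves came from other probe summaries or from ranking all targets. With single replicates left out, the mean percentile of SOX11 still ran from 47.4 to 67.6, against 57.1 on all arrays. No paired analysis was possible because the samples form 1 group.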

Other observations

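Among the neurofilament genes, structural proteins of axons, NEFM had high and low arrays like SOX11. It had a level of 13.57, 8.32, 13.09 and 8.08 log2 units on replicates 1 to 4. Its range of 5.49 log2 units was the fifth widest of all named genes, just before SOX11. INA had the same order of arrays with a smaller range of 1.64 log2 units, at 13.31, 12.13, 12.97 and 11.67 on replicates 1 to 4. The range was 0.39 for NEFL and 1.27 for NEFH, which was higher on replicates 2 and 4. NEFL stood at 4.01 ± 0.56, INA at 2.41 ± 1.04 and NEFH at 1.89 ± 0.86 log2 units (SD, n = 4 for each), with no array below the baseline. NEFM stood at 0.66 ± 3.08 (SD, n = 4), and was below the baseline on replicates 2 and 4, at -1.62 and -2.24. NEFM was named after its values were seen, and no correlation over 4 arrays is given.

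The epithelial keratin KRT8 stood at 4.80 ± 0.66, EPCAM at 3.84 ± 0.90 and KRT18 at 1.32 ± 0.50 log2 units (SD, n = 4 for each), while CDH1 stood at -0.03 ± 0.58.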
